A study of Mus musculus with 6 samples.

Results

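Glutathione transferases and other targets of the transcription factor NRF2 were followed in mouse embryonic handpads with and without the epithelial transcription factor gene Grhl3. The 10 genes are Gsta1, Gsta2, Gsta3, Gsta4, Gstm1, Gstm2, Nqo1, Hmox1, Gclc and Gclm, of 34989 genes in the tables. They were chosen by gene family and pathway with the fold changes of this same comparison already known. Their differences between genotypes are therefore a description, and an adjusted p printed for one of them only places it among all genes tested.

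Glutathione transferases couple the tripeptide glutathione to reactive electrophiles, which makes these compounds soluble and less harmful. NRF2, encoded by Nfe2l2, is held low by the adaptor KEAP1 and accumulates when reactive compounds modify KEAP1. It then binds antioxidant response elements and switches on transferases, enzymes of glutathione synthesis, Nqo1 and Hmox1. In skin this pathway is known for protecting keratinocytes, and epidermal NRF2 activity also affects genes of the cornified layer.

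The tissue was the handpad, the paddle-shaped end of the forelimb, of C57BL/6 embryos at E14.5. There were 3 wild-type and 3 Grhl3 knockout libraries of polyadenylated RNA, made with a stranded kit. The labels give no other allele or agent, do not say which part of Grhl3 was removed, and do not say whether a library was 1 embryo or a pool, so a p-value here weighs only library-to-library spread, part of which may be technical. The libraries held 38052692 to 56037639 estimated counts, the number of reads that kallisto assigned to transcripts. Grhl3 measured 14.3, 45.7 and 18.5 CPM (counts scaled to library size, with TMM factors) in wild-type replicates 1, 2 and 3 and 3.11, 2.86 and 2.95 CPM in the knockout replicates. Wild-type replicate 1 stood apart, with 9.37% of its counts in ribosomal protein genes against 5.92% to 8.15% in the others. Wild-type replicates 2 and 3 had 290 and 341 CPM of Y-linked genes and the other 4 libraries 3.37 to 5.36 CPM, so embryo sex is uneven between the genotypes.

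The whole tissue is mixed, and in bulk RNA fewer cells of a type and less RNA per cell cannot be told apart. All 8 limb mesenchyme markers were present, and their summed level ran from 3380 to 4594 CPM (wild-type) and from 3275 to 4419 CPM (knockout). The 10 surface epithelium markers were all higher on average in the knockout, and 0 of 10 passed the test. They summed to 1912 to 3278 CPM (wild-type) and 3263 to 4687 CPM (knockout). The 6 cartilage markers were all lower on average, with sums of 2933 to 4266 CPM (wild-type) and 1808 to 2806 CPM (knockout), and the 6 endothelium markers all higher, with 317 to 351 against 374 to 401 CPM. These sums did not overlap between genotypes, and 0 genes of either list passed the test. Of 8 markers of periderm, the transient outer covering of embryonic epidermis, 7 were higher and 1 lower on average in the knockout. Of these markers 6 passed the test, all higher, and the sums were 143 to 222 against 545 to 1079 CPM. Liver markers, which matter because alpha class transferases are abundant in liver, summed to 3.26 to 4.04 CPM in wild-type libraries. They summed to 34.3, 80 and 5.95 CPM in knockout replicates 1, 2 and 3, with Apoa2, Serpina1a or Fgb at 0 in some libraries. The part of any of these shifts in the results below was not tested.

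Within the alpha class the genes did not move alike. Gsta2, which encodes an alpha class transferase best known from liver and gut, was the 1 member that passed the test, and it was lower in the knockout. Gsta1, its close relative, was also lower in every knockout library, at counts too low to enter the test. Gsta4, the alpha class enzyme for lipid peroxidation products such as 4-hydroxynonenal, stood at nearly the same level in both genotypes.

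Gsta2 (ENSMUSG00000057933.10, chromosome 9, 78331018 to 78355788, minus strand, mm10) had 25.9, 67.9 and 31 estimated counts in wild-type replicates 1, 2 and 3. It had 3, 0 and 5 in the knockout replicates. On the CPM scale this was 0.687, 1.36 and 0.784 against 0.0609, 0 and 0.091. The groups did not overlap, and wild-type replicate 2 was the highest library. A count of 0 in knockout replicate 2 allows up to 3 counts, or 0.0633 CPM, counting error only. The level went from 0.945 ± 0.366 to 0.0506 ± 0.0464 CPM (SD, n = 3 per group). In the fit over all genes Gsta2 fell by 4.12 on the log2 scale (SE 0.64, 95% interval -5.58 to -2.65, adjusted p = 0.0442, edgeR quasi-likelihood test), which is 17.4-fold. From the 125 wild-type and 8 knockout counts alone the ratio was 19, with an exact interval of 9.36 to 45 that covers counting error only.

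Of 16938 genes tested, 73 were called at a false discovery rate (FDR) under 0.05, or 0.431%, and 14 of these, 0.0827%, were lower in the knockout. The members' share was 1 of 9 tested, and since the members were chosen with these values known, nothing is read from it. Scaling on the surface epithelium markers in place of TMM gave 438 calls over all genes, 63 higher and 375 lower, against 59 higher and 14 lower. Gsta2 passed the filter on low counts only through the wild-type libraries, and its place among the genes called is not read further. The call was lost when any library other than wild-type replicate 1 was left out. The adjusted p was then 0.13 without wild-type replicate 2, 0.189 without wild-type replicate 3, and 0.265, 0.0559 and 0.126 without knockout replicates 1, 2 and 3 (edgeR). The log2 fold change stayed between -4.82 and -3.60 over all 6 of these fits. In the fit without wild-type replicate 1, which kept the call (adjusted p = 0.0241, edgeR), genotype and embryo sex cannot be told apart.

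Wild-type replicate 1, the wild-type library without Y-linked expression, had 0.687 CPM of Gsta2, above all knockout libraries, which also lacked it. Among these 4 libraries alone the log2 fold change was -3.65 (SE 0.91, adjusted p = 0.175, edgeR). That fit had 1 wild-type library, which was assumed to vary like the knockout libraries, and it was chosen after seeing the data. Whether embryo sex bears on the counts of Gsta2 was not tested. Knockout replicate 2 had the most liver marker RNA, with 30.6 CPM of albumin (Alb), and 0 counts of Gsta2. Whether liver RNA bears on the counts of Gsta2 was not tested.

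Gsta1 (ENSMUSG00000074183.3, chromosome 9, 78230656 to 78242684, plus strand) had 13.4, 9.1 and 16.6 estimated counts in the wild-type replicates and 5.0, 1.0 and 1.4 in the knockout replicates. The level went from 0.318 ± 0.127 to 0.0469 ± 0.0473 CPM (SD, n = 3 per group), and the groups did not overlap. From the summed counts of 39 and 7 the ratio was 6.78, with an exact interval of 3 to 18 for counting error. Gsta1 did not pass the filter on low counts. With no filter its log2 fold change was -2.68 (SE 0.72, adjusted p = 0.232, edgeR), which did not pass the test. Without knockout replicate 1, the knockout library with most Gsta1, it was -3.83 (adjusted p = 0.286, edgeR), and it was -2.99 to -2.29 in the other 3 fits without 1 library that Gsta1 entered.

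Single values of Gsta1 and Gsta2 depend on how kallisto divided reads between close copies. Of the distinct 31-base words in the transcripts of Gsta1, 92.9% also occurred in transcripts of other genes, 80.3% in Gm3776, an alpha class gene between the pair, and 56.6% in Gsta2. Of those of Gsta2, 60.7% occurred elsewhere, 44.7% in Gsta1 and 43.6% in the nearby gene model Gm10639. Gm3776 itself had 2.6, 3.0 and 10.4 counts in the wild-type replicates and 0.0, 0.0 and 4.6 in the knockout replicates. Summed over Gsta1, Gsta2 and Gm3776, which removes the division between them, the log2 fold change was -3.40 (SE 0.52, adjusted p = 0.0408, edgeR). This sum does not depend on which of the 3 genes a shared read was given to. Gm10639, an alpha class gene model with 3 counts over the wild-type and 0 over the knockout libraries, was too low to compare. It is outside this sum, so the division of reads between it and the 3 genes was not removed.

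The isoforms of Gsta2 are given in TPM, a unit corrected for transcript length. The more abundant isoform, ENSMUST00000125479.7, measured 0.739, 2.43 and 1.46 TPM in the wild-type replicates and 0 in all 3 knockout replicates. Isoform ENSMUST00000034902.11 measured 0.67, 1.41 and 0.765 TPM against 0.0646, 0 and 0.116 TPM. Both were thus lower in each knockout library than in any wild-type library. A rarer isoform, ENSMUST00000129247.1, was at 0.00233 TPM at most in wild-type and up to 0.105 TPM in the knockout, levels of a few reads.

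The upstream regions of Gsta1, Gsta2 and Gm3776 resemble each other, and they are shown because these 3 genes share many of their reads. Of the 3, only Gsta2 passed the test, and Gm3776, which was too low to be tested, overlapped between genotypes. RefSeq windows (GRCm38.p6) were found for 7 of the 10 members, in 8 windows, and not for Gsta4, Hmox1 and Gclc. The 250 bases before the RefSeq start of Gsta1 (chr9:78230419-78230668, plus strand), Gm3776 (chr9:78256879-78257128, plus strand) and Gsta2 (chr9:78347146-78347395, minus strand) read, 5′ to 3′, with capitals for the longest run of bases that Gsta1 and Gsta2 share:
Gsta1: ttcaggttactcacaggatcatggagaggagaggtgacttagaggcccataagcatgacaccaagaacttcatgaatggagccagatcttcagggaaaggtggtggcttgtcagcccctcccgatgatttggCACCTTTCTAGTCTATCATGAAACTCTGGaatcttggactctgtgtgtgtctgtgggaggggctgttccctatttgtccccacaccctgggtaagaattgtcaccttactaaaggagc
Gm3776: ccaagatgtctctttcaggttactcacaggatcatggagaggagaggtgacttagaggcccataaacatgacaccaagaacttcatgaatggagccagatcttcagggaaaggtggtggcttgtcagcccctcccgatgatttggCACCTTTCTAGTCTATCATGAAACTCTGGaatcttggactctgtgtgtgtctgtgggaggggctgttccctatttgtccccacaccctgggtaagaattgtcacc
Gsta2: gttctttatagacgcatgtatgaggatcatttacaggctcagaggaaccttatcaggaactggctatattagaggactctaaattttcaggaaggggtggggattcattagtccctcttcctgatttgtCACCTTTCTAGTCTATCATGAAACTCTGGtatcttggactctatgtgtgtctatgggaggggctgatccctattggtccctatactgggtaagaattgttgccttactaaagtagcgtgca

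The shared run is 29 bases long and also stands in the window of Gm3776. In a global alignment the window of Gsta2 was 71.7% identical to that of Gsta1 and 65.4% to that of Gm3776. The windows of Gsta1 and Gm3776 were 89.7% identical. The run begins 118, 105 and 121 bases before the starts of Gsta1, Gm3776 and Gsta2, so these percentages also depend on where each start was set. The RefSeq start of Gsta2 lies inside the GENCODE span of the gene, which has a longer isoform. The core of the antioxidant response element, searched as TGACNNNGC on both strands, was found in the windows of Gsta3 and Gclm, 2 of 8 member windows, against 12.4% of 32851 windows of 300 bases. The grainyhead consensus AACCGGTT was found in 0 of the 8, against 0.146% of all windows. A match or its absence describes these letters in this window alone. The matches are shown with 12 flanking bases in lower case, at chr1:21240452-21240484 for Gsta3 and, on the opposite strand of the motif, at chr3:122245411-122245443 for Gclm:
Gsta3: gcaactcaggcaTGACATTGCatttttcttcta
Gclm: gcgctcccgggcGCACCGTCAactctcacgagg

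Gsta3, an alpha class gene on chromosome 1 (21240589 to 21265661), is in mice a main enzyme against aflatoxin. Its level was 1.4, 1.22 and 1.39 CPM in the wild-type and 0.954, 1.03 and 1.13 CPM in the knockout replicates. All 3 knockout libraries were below all wild-type libraries, but the log2 fold change of -0.36 (SE 0.23, 95% interval -0.88 to 0.15) did not pass the test. Groups that did not overlap, with the knockout lower, were found for 2 of the 9 members tested, Gsta2 and Gsta3, and for 6.16% of all genes tested. No member tested was higher in all knockout libraries than in every wild-type library, against 6.77% of all genes.

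Gsta4 (chromosome 9, 78182774 to 78209349) was the most abundant member and shared 0% of its 31-base words with other genes, so its reads are its own. Its libraries held 80.7, 65.5 and 59.6 CPM in the wild-type and 74.6, 72.8 and 64.9 CPM in the knockout replicates, and the groups overlapped. The log2 fold change was 0.05 (SE 0.12), and the 95% interval of the difference, -0.24 to 0.33, runs from 15.2% lower to 25.6% higher in the knockout. The interval of Gsta2 lay wholly below it, which is a description only, since both genes were chosen with their fold changes known.

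**Figure D1:**
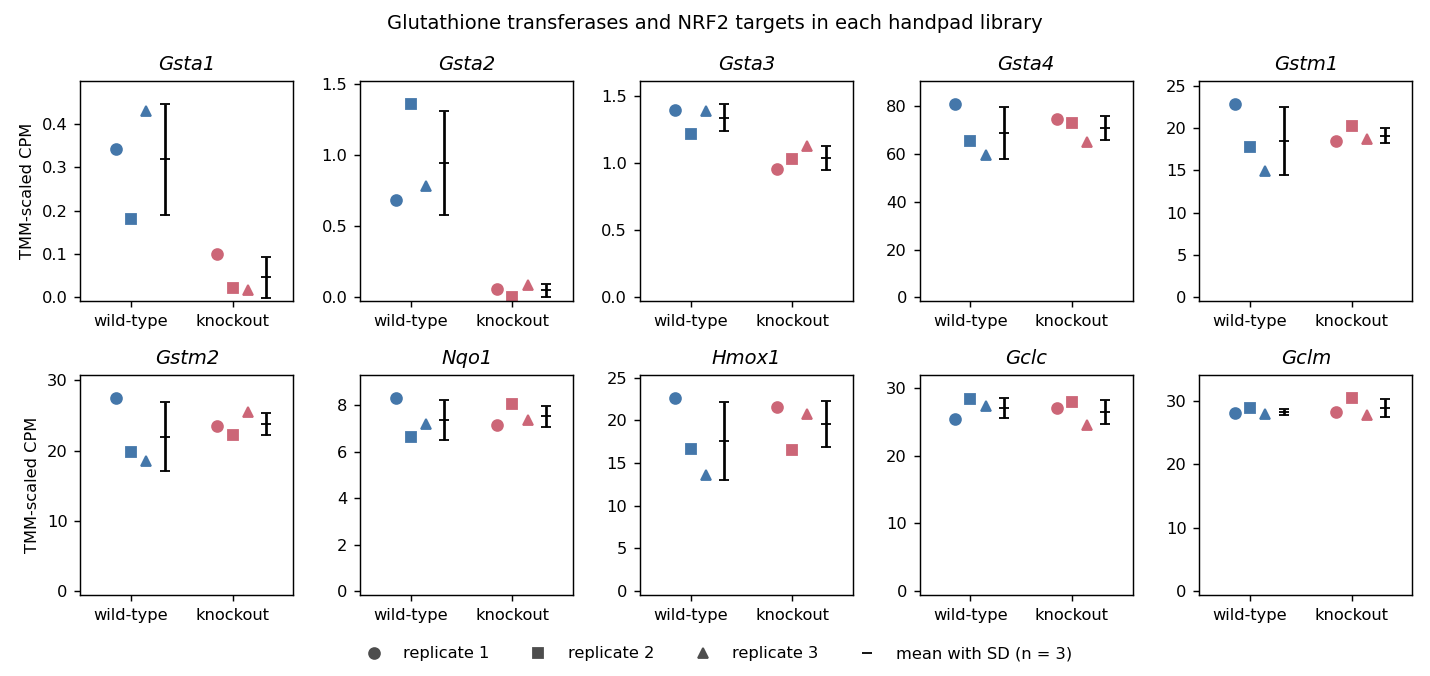
Level of each of the 10 genes in the 6 libraries, in CPM scaled by TMM on a linear axis from 0 (coloured points: libraries, marker shape: replicate number; black: mean with SD, n = 3 per group). Gsta1 and Gsta2 lie lower in every knockout library than in any wild-type library, Gsta3 does so by a small margin, and the groups of the other 7 genes overlap.

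Gclc, Gsta4, Gsta1, Gm3776 and Gsta2 lie in this order within 601 kb of chromosome 9, which offers a view of the surrounding genes. Between 250 kb before Gclc and 250 kb after Gsta2 the tables hold 32 genes, of which 15 were tested. Gsta2, chosen with its value known, was the only gene called (edgeR), against 0.431% of all genes tested, and nothing is read from this count. The other 14 tested genes of this stretch had log2 fold changes from -1.03 to 0.27. The lowest was Ddx43, an RNA helicase gene that starts 40.0 kb from the start of Gsta2, with mean levels of 1.63 CPM (wild-type) and 0.795 CPM (knockout) (adjusted p = 0.229, edgeR). Elovl5, a fatty acid elongase gene between Gclc and Gsta4, had a log2 fold change of -0.09 (SE 0.10). Ooep, the nearest tested gene beyond Gsta2, had 0.27 (SE 0.27). Omt2a and Omt2b, the coding genes between Gm10639 and Gsta2, had at most 0.00677 CPM on average in either genotype.

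**Figure D2:**
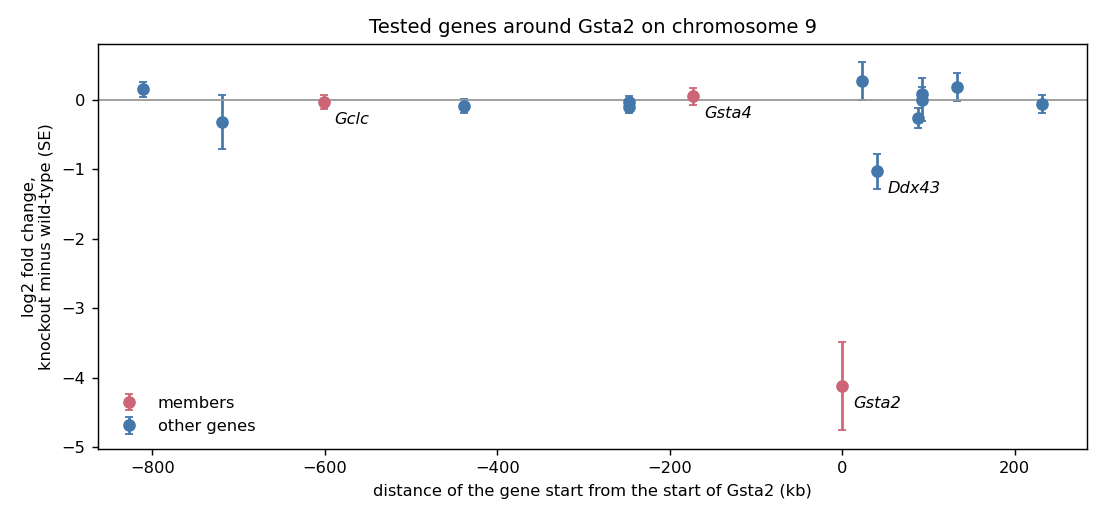
Log2 fold change (knockout minus wild-type, with SE) of the 15 tested genes around Gsta2 on chromosome 9, against the distance of each gene's start from that of Gsta2 in kb. Gsta2 lies at -4.12, Ddx43 at -1.03, and Gclc and Gsta4 at -0.03 and 0.05.

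The mu class did not separate the genotypes. Gstm1 (chromosome 3, 108012255 to 108017973), a broadly expressed transferase, measured 22.8, 17.7 and 14.9 CPM in the wild-type and 18.5, 20.2 and 18.7 CPM in the knockout replicates. Gstm2 (chromosome 3, 107981702 to 107986453), its neighbour, measured 27.5, 19.8 and 18.5 CPM against 23.5, 22.3 and 25.5 CPM. Wild-type replicate 1, the library that stood apart, was the highest for both, and the groups overlapped. Their log2 fold changes were 0.05 (SE 0.16, 95% interval -0.31 to 0.41) and 0.12 (SE 0.16, -0.25 to 0.48). Of the 31-base words of Gstm1, 28.8% occur in other genes, most of them in Gstm2-ps1 and Gstm3. Summed over Gstm1 to Gstm7, the log2 fold change was 0.06 (SE 0.13, adjusted p = 0.991, edgeR).

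The RNAs of Gclc and Gclm stood within a narrow range in all 6 libraries. Gclc encodes the catalytic and Gclm the modifier subunit of glutamate-cysteine ligase, the rate-limiting enzyme of glutathione synthesis. Gclc (chromosome 9, 77754535 to 77794485) measured 25.4, 28.3 and 27.3 CPM in the wild-type and 27.1, 27.9 and 24.5 CPM in the knockout replicates. Gclm (chromosome 3, 122245557 to 122270732) measured 28.1, 28.8 and 27.9 CPM against 28.2, 30.4 and 27.7 CPM. The groups overlapped for both subunits. The log2 fold changes were -0.03 (SE 0.10, 95% interval -0.26 to 0.20) for Gclc and 0.03 (SE 0.09, -0.18 to 0.23) for Gclm, the narrowest intervals of the 9 members tested.

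Nqo1, the quinone reductase that serves as the usual readout of NRF2 activity, was also level. On chromosome 8 (107388225 to 107403206), its level was 8.32, 6.64 and 7.19 CPM in the wild-type and 7.17, 8.05 and 7.37 CPM in the knockout replicates. The log2 fold change was 0.03 (SE 0.15, 95% interval -0.31 to 0.36). Hmox1 (chromosome 8, 75093621 to 75100589), which encodes the inducible heme oxygenase and is also expressed by macrophages, measured 22.6, 16.6 and 13.6 CPM against 21.5, 16.5 and 20.7 CPM. Its log2 fold change was 0.16 (SE 0.19), and its interval of -0.29 to 0.60 was the widest after Gsta2 and Gsta3. The 8 macrophage markers summed to 104 to 140 CPM (wild-type) and 110 to 160 CPM (knockout), and 0 of 7 tested passed the test. Among these markers Cd163 was near 0, with a maximum of 0.361 CPM.

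**Figure D3:**
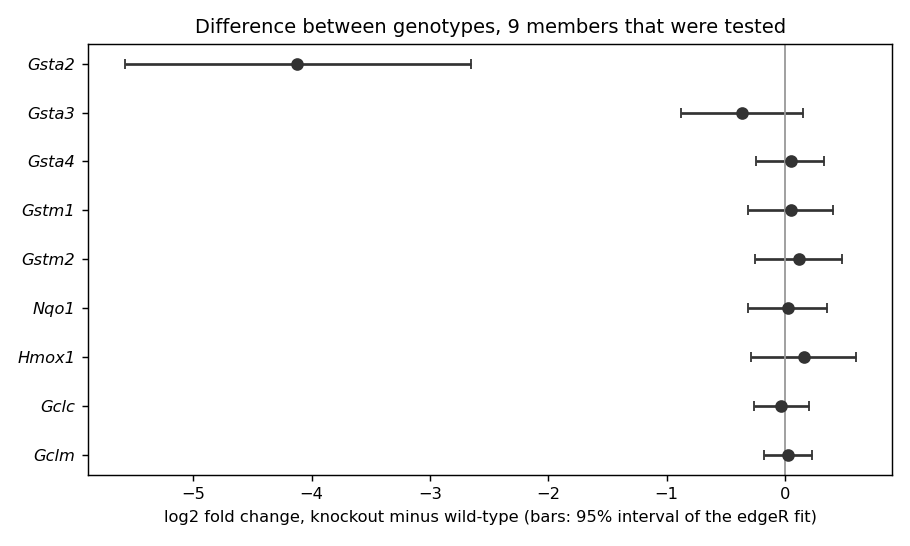
Log2 fold change, knockout minus wild-type, of the 9 genes that passed the filter on low counts, with a 95% interval computed from the edgeR fit. Gsta2 lies at -4.12 with an interval of -5.58 to -2.65, and the intervals of the other 8 genes include 0. With libraries scaled on the surface epithelium markers these 8 lie between -1.05 and -0.57, where the median of all genes is -0.681.

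Levels can be compared between genes only per length, in TPM. In wild-type libraries Gsta4 was highest at 152 ± 10.8 TPM (SD, n = 3), followed by Gstm2 at 45.5 ± 1.62, Gclm at 41.7 ± 8.42 and Gstm1 at 24.0 ± 2.92 TPM. Hmox1 at 15.8 ± 2.14, Gclc at 9.52 ± 1.7 and Nqo1 at 6.81 ± 0.345 TPM came next, and Gsta2 at 2.49 ± 1.24, Gsta3 at 1.84 ± 0.402 and Gsta1 at 0.955 ± 0.485 TPM were lowest. Gstm2 and Gclm overlapped in these 3 libraries, as did Gsta2 with Gsta3 and Gsta3 with Gsta1, while the other neighbours in this order did not. In the knockout Gsta4 was at 152 ± 18.3 TPM, while Gsta1 and Gsta2 were at 0.136 ± 0.0905 and 0.129 ± 0.115 TPM (SD, n = 3), below Gsta3 at 1.47 ± 0.189 TPM. Retained intron transcripts carried 52.8% of the TPM of Gsta1 over the 6 libraries, where single transcripts rest on a few reads, 31.8% of that of Gclm and, for the main one, 31% of that of Gstm2, so their TPM levels count more than coding message.

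The rest of the pathway was read from 6 lists, some of which share genes, holding 110 genes in all. Of these, 101 were tested and 0 were called (edgeR), against 0.431% of all genes tested, so nothing is read from the 0. At an unadjusted p under 0.05 there were 7 higher and 3 lower, against 3.81% and 3.41% of all genes. The groups did not overlap for 8, higher in the knockout, and 4, lower, against 6.77% and 6.16% of all genes. The likelihood ratio test of edgeR called 2, Nfe2l3 and Ggt1, and DESeq2 called 1, Nfe2l3. The median log2 fold change of the 101 was 0.07, against -0.004 for all genes, with 69 above 0 and 32 below. Of the 101, 96 lay within 0.5 of 0 on the log2 scale (95%), as did 91% of all genes tested.

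Of 22 other transferases, 16 were tested, 10 had positive and 6 negative fold changes, and the median was 0.04. The 4 with the smallest p-values were Gstt3, Gsto1, Gstm7 and Mgst3. Gstt3, a theta class gene, measured 16.4, 15.9 and 15.8 CPM in the wild-type and 13.4, 14.7 and 11.6 CPM in the knockout replicates. The groups did not overlap, and its log2 fold change was -0.28 (SE 0.12, adjusted p = 0.693, edgeR). Gsto1, an omega class gene, Gstm7 and the microsomal Mgst3 overlapped between genotypes, with log2 fold changes of -0.17, 0.24 and 0.17.

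Of 33 other NRF2 targets, all tested, 24 had positive and 9 negative fold changes (median 0.10). Without adjustment, 4 of them had p under 0.05 with the knockout higher and 2 with it lower. Ptgr1, which reduces reactive aldehydes and prostaglandins, measured 32.9, 25.6 and 29.1 CPM in the wild-type and 45.1, 38.3 and 37.4 CPM in the knockout replicates (log2 fold change 0.46, SE 0.12, adjusted p = 0.293, edgeR). Trim16, a ubiquitin ligase of the NRF2 and autophagy pathways, measured 25.2, 25.3 and 24.1 CPM against 32.1, 30.6 and 31.2 CPM (0.33, SE 0.09, adjusted p = 0.288, edgeR). Srxn1, the sulfiredoxin that restores peroxiredoxins, measured 12.2, 8.73 and 10.2 CPM against 14, 12.8 and 14 CPM (0.39, SE 0.15, adjusted p = 0.568, edgeR). Ugdh, which makes UDP-glucuronate, went from 144 ± 9.12 to 119 ± 12.3 CPM (SD, n = 3 per group), with a fold change of -0.28 in log2 units (adjusted p = 0.573, edgeR, SE 0.11). The groups did not overlap for these 4 genes, and none passed the test. Of all genes tested, 6.77% did not overlap with the knockout higher and 6.16% with it lower. With libraries scaled on the surface epithelium markers, Ptgr1, Trim16 and Srxn1 had negative fold changes of -0.25 to -0.34, above the median of all genes at -0.681.

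NRF2 itself was transcribed at like levels. Nfe2l2 averaged 35.2 ± 2.77 CPM (wild-type) and 38.2 ± 1.54 CPM (knockout), and Keap1 82.9 ± 8.51 and 86 ± 4.7 CPM (SD, n = 3 per group). The log2 fold changes were 0.12 (95% interval -0.10 to 0.34) and 0.05 (-0.17 to 0.28). Both were named outside the naming rule, after their values were seen. Among 16 regulators, Nfe2l3, which encodes NRF3, a relative of NRF2 that is known from epidermis and placenta, had the smallest p. Its level was 3.8, 6.48 and 4.38 CPM in the wild-type and 10.3, 9.04 and 8.33 CPM in the knockout replicates (log2 fold change 0.91, SE 0.22, adjusted p = 0.203, edgeR). In the authors' deposited table Nfe2l3 has a log2 fold change of 0.91 and an FDR of 0.0285. Dpp3, a peptidase that binds KEAP1, and Mafk, a small Maf partner of NRF2, did not overlap between genotypes, with log2 fold changes of 0.21 and 0.23. Nfe2, the blood cell relative, overlapped at 0.71 (SE 0.33). The 8 erythroid markers summed to 5178 to 8337 CPM (wild-type) and 6162 to 10780 CPM (knockout), and their part in the value of Nfe2 was not tested.

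Of 28 genes of glutathione synthesis, recycling and use, 17 had positive and 11 negative fold changes (median 0.08). Ggt1, the membrane enzyme that begins the breakdown of extracellular glutathione, measured 0.264, 0.341 and 0.455 CPM in the wild-type and 0.913, 0.99 and 0.764 CPM in the knockout replicates (log2 fold change 1.32, SE 0.31, adjusted p = 0.204, edgeR). Glo1, glyoxalase 1, which uses glutathione to clear methylglyoxal, measured 163, 236 and 260 CPM against 151, 158 and 149 CPM. Its groups did not overlap (log2 fold change -0.52, SE 0.16, adjusted p = 0.405, edgeR), and wild-type replicate 1 lay close to the knockout libraries. Without that library Glo1 was called (log2 fold change -0.70, adjusted p = 0.00942, edgeR). In that fit genotype and embryo sex cannot be told apart. Among the 4 libraries without Y-linked expression, of which wild-type replicate 1 was the only wild-type library, the log2 fold change of Glo1 was -0.09. That value restates how close this library lay to the knockout libraries. Whether embryo sex bears on Glo1 was not tested. Anpep, a peptidase, and Gpx1, the abundant glutathione peroxidase, overlapped, with log2 fold changes of 0.40 and 0.25. The highest point estimate of the lists was that of Gpx2, the gut-type glutathione peroxidase, at 1.46 (SE 0.88), from 0 to 0.253 CPM in wild-type and 0.105 to 0.528 CPM in knockout libraries. It overlapped between genotypes and was singled out after its value was seen.

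Of 12 heme and iron partners of Hmox1, 11 were tested and their log2 fold changes lay between -0.11 and 0.25. Blvra and Blvrb, the biliverdin reductases that act after heme oxygenase, had 0.15 and 0.25, and the heme carriers Slc48a1 and Flvcr1 0.11 and -0.11. The aryl hydrocarbon receptor, which shares Nqo1 as a target, and its genes gave 5 tested of 7, from -0.18 for Ahrr to 0.09 for Ahr, with Arnt at -0.08 and Cyp1b1 at -0.10. None of these named genes passed the test, and their groups overlapped.

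**Figure D4:**
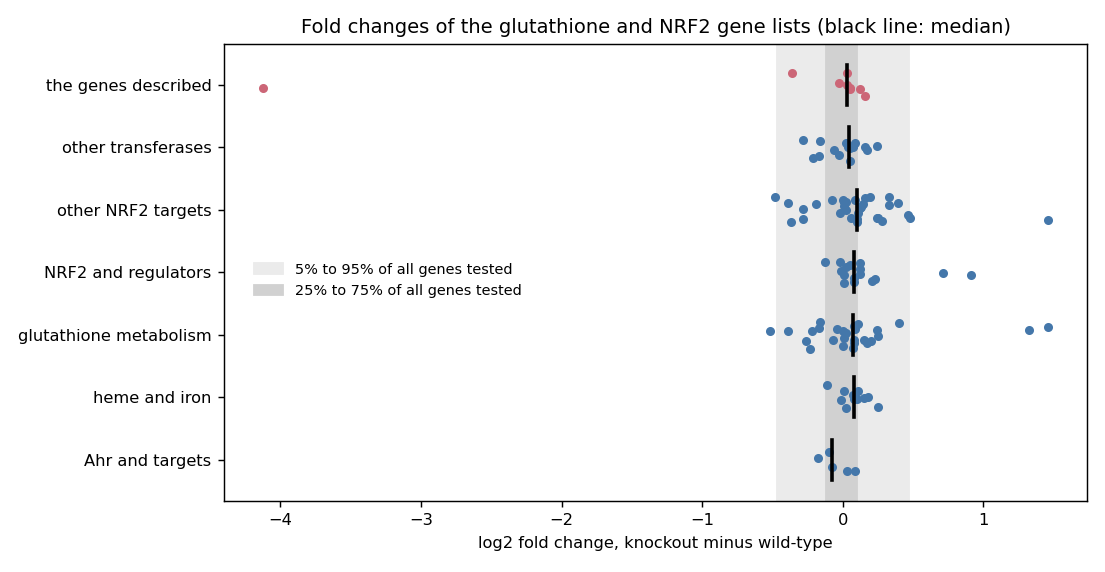
Log2 fold change, knockout minus wild-type, of each tested gene in the members and in 6 lists of related genes (points), with the median of each list (black line) and the spread of all 16938 genes tested (grey bands, the wider from -0.471 to 0.471). The median of all genes is -0.004, the list medians lie between -0.08 and 0.10, and Gsta2 stands alone at -4.12. With surface epithelium scaling the median of all genes is -0.681.

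The authors' deposited table of the comparison lists 941 genes with p-values up to 0.0506. Of the 10 members 0 are among them, and of the 110 pathway genes 9 are, with an FDR under 0.05 for Nfe2l3 alone. The lowest mean log2 CPM in the authors' deposited table is -0.63, and that of Gsta2 in the present fit was -0.92. Ggt1, at -0.57 in the present fit, is not listed there either. The authors' filter is not given, and why Gsta2 is absent was not tested.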

How the data were processed

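The authors quantified reads with kallisto and build mm10, per the submitters' processing notes. For version, transcript set and filters the entry is "not given in the sources used here". The deposited transcript tables hold estimated counts, not normalized, and TPM, per the file headers. The authors' deposited table holds a log2 fold change, log2 CPM, a likelihood ratio score and p-value columns per gene. Of 111462 transcripts, 110203 matched GENCODE M21, and the 1259 unmatched held 0.504% to 0.566% of counts. Counts were summed per gene, rounded and tested with edgeR 4.0.16 in R 4.3.3 (TMM, filterByExpr with a minimum count of 10 and total of 15, quasi-likelihood test, Benjamini-Hochberg over 16938 genes, FDR under 0.05), genotype being the only term. The script was tested on simulated data, with changes planted only in genes that averaged above 1 CPM. Gsta2, at a mean log2 CPM of -0.92, lay below that level.

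Intervals are 95% intervals. For log2 fold changes of the quasi-likelihood test, the SE is the absolute log2 fold change divided by the square root of the F statistic. Their intervals are symmetric and use the t distribution. The members and lists were chosen with earlier results of these data known. Genes named are all members and, per list, those called or otherwise the 4 with the smallest p-values. The listed symbol Gsta13 matched no gene. Alternatives were other scalings, filters, tools, a length offset, a replicate block, summed paralogs and libraries left out. DESeq2 was version 1.42.0. TPM served to compare levels between genes and to describe isoforms.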

Additional observations from a re-analysis of the deposited data

How the results depend on the processing

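Over all genes, 73 were called, 118 with no filter, 47 with the replicate block, 299 with DESeq2, 260 with the likelihood ratio test, 438 with surface epithelium scaling and 10 to 206 with 1 library left out (206, 45 and 10 without wild-type replicates 1, 2 and 3, and 17, 64 and 22 without knockout replicates 1, 2 and 3). The member called, Gsta2, was lost (0 called) with the replicate block (log2 fold change -4.08, adjusted p = 0.132, edgeR), among the 4 libraries without Y-linked expression, with the filter of 1 CPM in 3 libraries, which leaves Gsta2 untested, and in 5 of the fits without 1 library (0 to 1 called). The fold change of Gsta2 was negative in every fit that tested it. This follows from groups that lay far apart without overlap, and it adds no support. Of the pathway genes, 0 were called, 0 to 1 without 1 library, 1 with DESeq2, 2 with the likelihood ratio test, 1 with surface epithelium scaling (Glo1) and 1 among libraries without Y-linked expression (Gstp1, named after its value was seen). Replicate numbers pair nothing in the labels. Deviations of same-numbered libraries correlated at -0.244, -0.0916 and -0.162, and 0 of 6 libraries were closest to their own number.

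Of the named genes, those whose sign changed were not called under any setting. With surface epithelium scaling, where all genes had a median of -0.681, the log2 fold changes were -0.46 for Gstm7, -0.57 for Mgst3, -0.34 for Trim16, -0.25 for Ptgr1, -0.33 for Srxn1, -0.45 for Dpp3, -0.43 for Mafk, -0.25 for Anpep, -0.44 for Gpx1, -0.53 for Blvra, -0.46 for Blvrb, -0.57 for Slc48a1 and -0.59 for Ahr, and of the members Gsta4 (-0.65), Gstm1 (-0.64), Gstm2 (-0.60), Nqo1 (-0.66), Hmox1 (-0.57) and Gclm (-0.64) also changed sign. Among the libraries without Y-linked expression they were -0.16 for Gstm7, -0.18 for Mgst3, -0.15 for Blvrb, 0.09 for Flvcr1, 0.02 for Arnt and 0.29 for Cyp1b1, and for the members -0.18 for Gsta4, -0.25 for Gstm1, -0.21 for Gstm2, -0.14 for Nqo1, -0.20 for Hmox1 and 0.07 for Gclc. With 1 library left out, Ahr ran from -0.03 (without knockout replicate 1) to 0.24, and Cyp1b1 from -0.26 to 0.00 (without wild-type replicate 2). Of the members, Gsta4 was at -0.05, Gstm1 at -0.08 and Hmox1 at 0 to 2 decimals without wild-type replicate 3, Nqo1 at -0.04 and Gclc at 0.01 without wild-type replicate 2, Nqo1 and Gclm at -0.02 without knockout replicate 2, and Gclc at 0.03 without knockout replicate 3. The cause was not tested. Gsta1 and Gsta2 rest on at most 67.9 counts a library, so their fold changes are imprecise.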
